A study of Mus musculus with 6 samples.

Results

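Genes of the lysosome were compared between the livers of 3 mice labelled WT and 3 mice labelled *Themis*-KO. The list holds 42 of the 25403 genes in the count table and was chosen by name, as lysosomal hydrolases, membrane proteins, subunits of the proton pump (V-ATPase), Rag GTPases and the TFE transcription factors with their regulators, taking the row with the most counts where a symbol had several. The WT mice were wild-type C57BL6/J, and the *Themis*-KO mice carried a whole-body inactivation of *Themis*, which encodes an adaptor protein of T cell receptor signaling. All 6 mice, controls included, received a MASH diet (AMYLIN liver NASH diet, 40% of energy as fat, 20% as fructose, and 2% cholesterol) for 3 months from an age of 10 to 12 weeks. No chow-fed liver was part of this comparison. Each library was made from poly(A) RNA of the frozen liver of 1 mouse, so hepatocytes and all nonparenchymal cells were read together.

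Lysosomes are acidic organelles in which proteases, lipases and glycosidases break down material from endocytosis and autophagy. The V-ATPase pumps protons into the lumen, LAMP proteins coat the membrane, and NPC1 and NPC2 export the cholesterol that the acid lipase LIPA sets free. TFEB, TFE3 and MITF bind a short E-box in the promoters of many of these genes. When amino acids are plentiful, the Rag GTPases recruit mTORC1 and TFEB to the lysosomal surface and TFEB is kept in the cytoplasm, and the complex of FLCN and FNIP proteins activates RagC and RagD in this step. In MASH liver, macrophages that take up lipid are known for high expression of lysosomal genes.

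The libraries held 20679642 to 25649767 counts on genes, and 14496 genes passed the filter on low counts. All 42 lysosomal genes passed, the lowest count being 22, for *Ctsk* in 1 liver. Levels are given as CPM, that is, reads of a gene relative to the TMM-normalized library size, and adjusted p-values come from the quasi-likelihood fit of edgeR, adjusted by Benjamini-Hochberg over the 14496 genes. Differences are log2 fold changes of *Themis*-KO over WT with their standard error (SE). Values of 3 livers are listed in the order of their replicate numbers. *Themis* itself stood at 8.07, 25.6 and 12.0 CPM in WT livers and at 8.63, 7.74 and 9.97 in *Themis*-KO livers. The groups overlapped (log2 fold change −0.79, SE 0.38, adjusted p = 0.199), so the targeted gene did not separate the labels. Directions are given by label. WT replicates 1 and 2 stood apart from the other 4 livers in reads on the mitochondrial gene *mt-Nd3* and its nuclear copy *Gm28438*: the copy took 96.6% and 96.8% of the counts of both there, while its share elsewhere was 2.20% to 3.26%. Values from a fit with this split as a covariate are given for the genes that passed the test. They are also given for some larger differences that the covariate lowered and for genes whose sign it turned. Other values moved as well, such as *Tfe3* from 0.50 to 0.39 and *Ctsz* from 0.25 to 0.36.

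Of the 42 genes, 8 were higher in *Themis*-KO livers at an adjusted p under 0.05 (19.0% of the genes, against 4.97% of all genes tested) and 0 were lower (against 4.14%). At an unadjusted p under 0.05 the same test gave 20 higher and 3 lower, and 2438 higher and 2011 lower among all 14496 genes tested. The 8 genes were *Rragd*, *Asah1*, *Ctss*, *Psap*, *Npc2*, *Gusb*, *Hexa* and *Ctsb*. In 20 genes every *Themis*-KO liver lay above every WT liver (17.7% of all genes tested did so), and in 4 every *Themis*-KO liver lay below (16.9%). The median log2 fold change was 0.23, beside 0.0095 for all genes tested, with 31 positive and 11 negative values. The summed CPM of the 42 genes ran from 5396 to 5660 in WT livers and from 6001 to 6463 in *Themis*-KO livers.

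The count of 8 depended on single livers. Leaving out replicate 1 or 2 of either label lowered it to 1. It was 5 when WT replicate 3 was left out and 19 when *Themis*-KO replicate 3 was left out. With the replicate number as a block it was 1, and with the mitochondrial split as a covariate, which leaves 1 WT liver on the side of the *Themis*-KO livers, it was 0. *Rragd* was the gene left in each fit with 1. The count over all genes tested also depended on which liver was left out, so such shifts were not particular to the 42 genes. It fell from 721 higher to 17 with the block, and its other values are given at the end. In the fit with the covariate the log2 fold changes were 0.35 for *Asah1*, 0.47 for *Psap*, 0.32 for *Npc2*, 0.31 for *Gusb*, 0.34 for *Hexa* and 0.31 for *Ctsb*, with adjusted p from 0.422 for *Psap* to 0.486 for *Ctsb*. The median over the 42 genes stayed between 0.19 and 0.26 with each liver left out.

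*Rragd*, which encodes the Rag GTPase RagD, showed the largest difference of the list. WT livers held 4.27, 3.60 and 4.06 CPM and *Themis*-KO livers 10.5, 10.5 and 9.92. Livers of one label lay close together, and the 2 ranges were far apart. The fold change was 2.59 (log2 fold change 1.38, SE 0.13, adjusted p = 0.00918). With each liver left out the log2 fold change ran from 1.31 to 1.43 and the adjusted p stayed at or below 0.0486, and a block on the replicate number gave 0.0479. With the mitochondrial split as a covariate the log2 fold change was 1.34, with an adjusted p of 0.171. The gene (ENSMUSG00000028278) is protein coding and spans chromosome 4 from 32983037 to 33022180 on the forward strand of GRCm38.

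The other Rag GTPase of the list differed less. *Rragc*, which encodes RagC, had a CPM of 50.1, 56.1 and 55.8 in WT livers and 67.7, 66.7 and 59.2 in *Themis*-KO livers (log2 fold change 0.26, SE 0.091, adjusted p = 0.106). The groups did not overlap, but the test was not passed. Per kilobase of merged exons, *Rragc* stood at 16.2 CPM in WT and 19.3 in *Themis*-KO livers and *Rragd* at 0.769 and 2.00, so RagD mRNA was the scarcer of the pair under both labels.

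None of the 3 transcription factors passed the test at the RNA level. *Tfeb* had a CPM of 9.54, 9.84 and 10.5 in WT livers and 11.9, 11.3 and 11.1 in *Themis*-KO livers, without overlap (log2 fold change 0.20, SE 0.11, adjusted p = 0.241). *Tfe3* had 25.6, 22.6 and 27.1 in WT livers and 41.6, 38.8 and 26.4 in *Themis*-KO livers (0.50, SE 0.17, adjusted p = 0.0955). Here *Themis*-KO replicates 1 and 2 were high and replicate 3 lay within the WT range. *Mitf*, which had the lowest mean over the 6 livers per exon length, had 4.50, 4.65 and 5.52 in WT livers and 5.57, 5.55 and 4.63 in *Themis*-KO livers, with overlap (0.10, SE 0.16, adjusted p = 0.695). The activity of these factors is set largely by phosphorylation and location, which RNA counts do not measure.

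*Flcn*, which encodes folliculin, had a CPM of 32.2, 33.4 and 29.9 in WT livers and 57.0, 44.5 and 31.4 in *Themis*-KO livers (log2 fold change 0.48, SE 0.19, adjusted p = 0.143). As for *Tfe3*, *Themis*-KO replicate 3 lay within the WT range. *Fnip1*, which encodes a partner of folliculin, had 34.6, 31.9 and 35.2 in WT livers and 38.7, 32.3 and 27.2 in *Themis*-KO livers (−0.049, SE 0.13, adjusted p = 0.822), and the *Themis*-KO livers spanned the whole WT range.

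**Figure D1:**
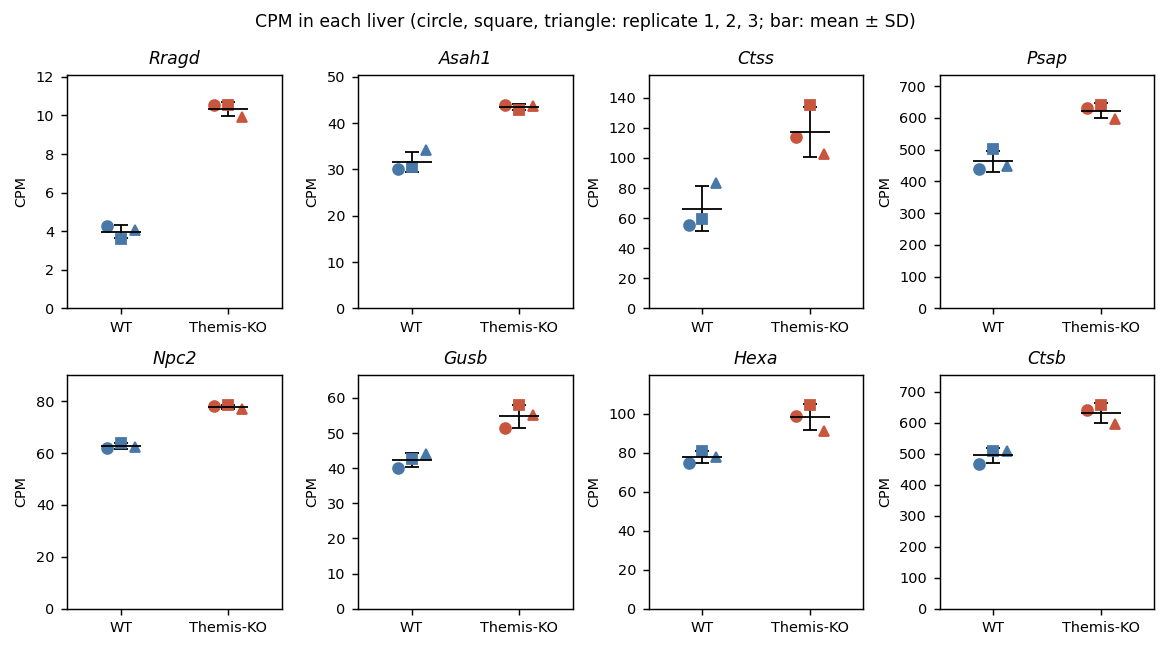
CPM (linear axes from 0) of the 8 genes with an adjusted p under 0.05 in each of 3 WT and 3 *Themis*-KO livers; symbols stand for replicate numbers and bars for the mean ± SD. In each panel the *Themis*-KO livers lie above the WT livers, with the widest relative gap for *Rragd*, at 3.98 ± 0.34 against 10.3 ± 0.36 CPM.

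Promoter sequences of the list were read because TFEB, TFE3 and MITF bind E-boxes. RefSeq windows on GRCm38.p6, from 250 bases before to 50 after an annotated start, were found for 35 of the 42 genes in 43 windows. *Ctsb*, *Ctsh*, *Asah1*, *Npc1*, *Atp6v0d2*, *Atp6v1b2* and *Atp6v1h* had no entry. Both strands were searched for CACGTG, for TCACGTGA and for GTCACGTGAC, which are their own reverse complements and of which each longer one contains the shorter. CACGTG was in a window of 15 of the 35 genes (34.9% of their windows, against 7.15% of all 32851 windows). TCACGTGA was in windows of 7 genes, *Atp6v0d1*, *Atp6v1a*, *Cln3*, *Ctsa*, *Ctsd*, *Gla* and *Mcoln1* (16.3% of windows against 0.974%). The full GTCACGTGAC was in 1, that of *Cln3* (2.33% against 0.326%). In *Lamp1* CACGTG occurred 4 times, with starts 61, 45, 28 and 15 bases upstream of the annotated start.

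The 5 windows printed here show the longest match of the list (*Cln3*), a window with 2 copies of TCACGTGA (*Gla*), the one with 4 copies of CACGTG (*Lamp1*), and those of 2 genes with higher counts in *Themis*-KO livers in which these letters do not occur (*Rragd* and *Ctss*). They are written 5′ to 3′ on the strand of the gene, and capitals mark CACGTG with the flanking bases that extend the match. *Cln3* also had a window at another annotated start, in which CACGTG does not occur.
Cln3, chr7:126583187-126583486, reverse strand: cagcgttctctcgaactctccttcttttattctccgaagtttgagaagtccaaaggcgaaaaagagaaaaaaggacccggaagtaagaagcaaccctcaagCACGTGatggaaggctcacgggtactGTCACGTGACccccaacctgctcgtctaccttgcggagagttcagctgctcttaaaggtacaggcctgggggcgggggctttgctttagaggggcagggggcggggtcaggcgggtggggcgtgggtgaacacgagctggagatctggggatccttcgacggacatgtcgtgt
Gla, chrX:134600956-134601255, reverse strand: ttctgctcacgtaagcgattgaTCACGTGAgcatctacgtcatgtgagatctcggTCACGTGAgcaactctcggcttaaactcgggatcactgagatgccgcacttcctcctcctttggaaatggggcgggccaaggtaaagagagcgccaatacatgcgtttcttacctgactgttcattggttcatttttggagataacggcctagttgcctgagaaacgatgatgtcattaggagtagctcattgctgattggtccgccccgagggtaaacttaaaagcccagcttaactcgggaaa
Lamp1, chr8:13158911-13159210, forward strand: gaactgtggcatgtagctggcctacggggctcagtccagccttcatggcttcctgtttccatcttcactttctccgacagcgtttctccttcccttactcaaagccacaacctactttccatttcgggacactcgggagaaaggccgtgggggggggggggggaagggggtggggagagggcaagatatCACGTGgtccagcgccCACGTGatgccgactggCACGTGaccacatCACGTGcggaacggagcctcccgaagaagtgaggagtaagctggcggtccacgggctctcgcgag
Rragd, chr4:32982748-32983047, forward strand: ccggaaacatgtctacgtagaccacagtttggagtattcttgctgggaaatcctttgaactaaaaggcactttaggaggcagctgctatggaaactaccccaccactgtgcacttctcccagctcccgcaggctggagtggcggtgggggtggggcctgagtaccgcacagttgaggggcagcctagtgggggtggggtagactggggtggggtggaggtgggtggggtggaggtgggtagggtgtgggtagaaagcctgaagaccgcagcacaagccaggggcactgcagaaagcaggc
Ctss, chr3:95526536-95526835, forward strand: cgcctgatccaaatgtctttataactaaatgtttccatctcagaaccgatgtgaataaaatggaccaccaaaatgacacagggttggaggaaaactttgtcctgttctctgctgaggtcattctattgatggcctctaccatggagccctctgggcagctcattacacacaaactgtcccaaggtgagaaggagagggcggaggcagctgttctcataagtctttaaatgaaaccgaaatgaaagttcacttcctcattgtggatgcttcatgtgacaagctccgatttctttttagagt

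Of the 15 genes with CACGTG in a window, 0 passed edgeR's test. With 4.97% of all genes called higher, so short a list can hold 0 calls, and no conclusion is drawn from it. At an unadjusted p under 0.05, 4 of the 15 were higher and 0 lower, and DESeq2 called 1. Among all 14496 genes tested, 2438 were higher and 2011 lower without adjustment, and DESeq2 called 1279 higher and 1090 lower. Of the 15, 9 had a positive log2 fold change, and the median was 0.10 with a range from −0.17 to 0.74. Of the 20 genes whose windows lack these letters, 6 were called (8 by DESeq2), and without adjustment 12 were higher and 2 lower. Of these 20, 17 were positive and the median was 0.28, from −0.24 to 1.38. Of the 7 without an entry 2 were called (4 by DESeq2), and without adjustment 4 were higher and 1 lower. The difference between these groups was not tested. A match is no sign of binding, and windows this short leave out other regulatory sequence. Variants of these letters were not searched.

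None of the 5 V-ATPase subunits of the list passed the test in edgeR. All 5 log2 fold changes were positive, from 0.014 to 0.98. DESeq2 called *Atp6v0d2* (adjusted p = 0.00641) and *Atp6v1b2* (adjusted p = 0.0319) higher, but not *Atp6v0d1*, *Atp6v1a* or *Atp6v1h*. Of all 14496 genes tested, DESeq2 called 1279 higher and edgeR 721. *Atp6v0d1*, the form of the d subunit found in most tissues, had a CPM of 59.9, 57.0 and 58.0 in WT livers and 58.4, 61.8 and 56.4 in *Themis*-KO livers (log2 fold change 0.014, SE 0.076, adjusted p = 0.912). *Atp6v0d2*, the form known from osteoclasts and macrophages, had 2.06, 3.07 and 4.03 in WT livers and 5.10, 6.84 and 6.23 in *Themis*-KO livers (0.98, SE 0.25, adjusted p = 0.0509). Its groups did not overlap, WT replicate 3 was the highest of the WT livers, and with the mitochondrial split as a covariate the value was 0.59. Per kilobase of exon the first form was at 32.5 CPM in WT and 32.8 in *Themis*-KO livers and the second at 1.12 and 2.23.

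In the cytoplasmic part of the pump, *Atp6v1b2*, the B subunit, had 43.5, 42.2 and 45.3 CPM in WT livers and 74.8, 67.5 and 46.4 in *Themis*-KO livers (log2 fold change 0.53, SE 0.16, adjusted p = 0.0798). *Atp6v1a*, the catalytic A subunit, had 49.3, 48.1 and 49.9 in WT livers and 60.4, 59.4 and 51.6 in *Themis*-KO livers (0.22, SE 0.088, adjusted p = 0.139). In both, *Themis*-KO replicate 3 lay just above the WT livers and far below the other two *Themis*-KO livers. *Atp6v1h*, the H subunit, had 51.5, 54.4 and 55.0 in WT livers and 55.8, 59.2 and 48.7 in *Themis*-KO livers, with overlap (0.026, SE 0.094, adjusted p = 0.872).

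Among the 12 proteases, 2 cathepsins passed the test. *Ctss* encodes cathepsin S, the protease of antigen-presenting cells that trims the invariant chain of MHC class II. It had a CPM of 55.6, 59.7 and 83.7 in WT livers and 114, 135 and 103 in *Themis*-KO livers (log2 fold change 0.82, SE 0.17, adjusted p = 0.0345). WT replicate 3 was well above the other WT livers yet below every *Themis*-KO liver. With the mitochondrial split as a covariate the value was 0.49 (adjusted p = 0.437). *Ctsb*, an abundant cysteine protease, had 468, 509 and 511 in WT livers and 642, 657 and 596 in *Themis*-KO livers (0.35, SE 0.089, adjusted p = 0.0498). An exon overlaps one of *Fdft1* on the opposite strand, and whether counting used the strand is not given in the sources used here, but *Fdft1* had at most 1193 counts in a liver and *Ctsb* at least 10211.

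*Ctsk*, the collagen-degrading cathepsin K, had only 1.19, 1.06 and 1.74 CPM in WT livers and 2.42, 2.67 and 2.55 in *Themis*-KO livers (log2 fold change 0.93, SE 0.24, adjusted p = 0.0520; 0.55 with the covariate). *Ctsd*, the main aspartic protease of the lysosome, had 358, 386 and 416 in WT livers and 458, 513 and 462 in *Themis*-KO livers (0.30, SE 0.097, adjusted p = 0.0829; 0.20 with the covariate). Neither pair of groups overlapped and neither passed the test in edgeR. DESeq2 called both, with adjusted p of 0.0314 for *Ctsk* and 0.0466 for *Ctsd*, and also *Ctsc* (adjusted p = 0.0428). *Ctsc*, the dipeptidase that activates serine proteases of granules, had 62.0, 51.3 and 75.1 in WT livers and 106, 111 and 66.9 in *Themis*-KO livers, and *Themis*-KO replicate 3 lay within the WT range (0.59, SE 0.21, adjusted p = 0.107; 0.34 with the covariate).

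Of the other proteases, *Ctsz* (log2 fold change 0.25, SE 0.087, adjusted p = 0.0994) and *Tpp1*, the tripeptidyl peptidase (0.24, SE 0.076, adjusted p = 0.0847), lay above the WT range in every *Themis*-KO liver. *Ctsl* (0.22, SE 0.17, adjusted p = 0.407) and *Ctsa*, which protects neuraminidase and beta-galactosidase (0.10, SE 0.10, adjusted p = 0.500), overlapped. The values of *Ctso* (−0.24, SE 0.10, adjusted p = 0.158), *Ctsf* (−0.17, SE 0.093, adjusted p = 0.255) and *Ctsh* (−0.11, SE 0.089, adjusted p = 0.411) were negative. Of these, every *Themis*-KO liver was below every WT liver for *Ctsf*, at 16.1 to 17.4 CPM against 17.7 to 19.6. With libraries scaled by total counts the value of *Ctsh* turned to 0.025. Without *Themis*-KO replicate 3 *Ctso* passed as lower, at −0.33 (adjusted p = 0.0361).

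Of the 4 genes for lipid breakdown, 2 rose, and both act on sphingolipids. *Psap* encodes prosaposin, the precursor of the saposins that present sphingolipids to their hydrolases. It had a CPM of 439, 501 and 449 in WT livers and 632, 640 and 597 in *Themis*-KO livers (log2 fold change 0.43, SE 0.091, adjusted p = 0.0356). *Asah1*, the acid ceramidase, had 30.1, 30.6 and 34.1 in WT livers and 43.9, 42.8 and 43.7 in *Themis*-KO livers (0.46, SE 0.083, adjusted p = 0.0255). The 3 *Themis*-KO livers were close to each other, and the lowest was 8.70 CPM above the highest WT liver. *Smpd1*, the acid sphingomyelinase that makes ceramide, had 42.9, 39.4 and 37.0 in WT livers and 36.3, 35.9 and 34.1 in *Themis*-KO livers, lower without overlap but not past the test (−0.17, SE 0.087, adjusted p = 0.231). *Lipa*, the acid lipase for cholesteryl esters and triglycerides, had 232, 305 and 276 in WT livers and 324, 302 and 342 in *Themis*-KO livers, with overlap (0.25, SE 0.12, adjusted p = 0.186).

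Of the 8 glycosidases, 2 rose. *Hexa*, the alpha subunit of beta-hexosaminidase, had a CPM of 74.8, 80.9 and 77.7 in WT livers and 98.9, 104 and 91.1 in *Themis*-KO livers (log2 fold change 0.33, SE 0.084, adjusted p = 0.0485). *Gusb*, beta-glucuronidase, had 40.2, 42.6 and 44.2 in WT livers and 51.3, 57.9 and 55.0 in *Themis*-KO livers (0.37, SE 0.084, adjusted p = 0.0398). Both sets of livers were apart. *Gla*, alpha-galactosidase A, had the largest SE of the group, with 3.81, 3.93 and 5.84 in WT livers and 8.71, 9.85 and 4.16 in *Themis*-KO livers (0.74, SE 0.33, adjusted p = 0.169; 0.38 with the covariate), and *Themis*-KO replicate 3 lay within the WT range.

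The 5 other glycosidases did not pass and differed little. The value was 0.16 for *Man2b1*, alpha-mannosidase (SE 0.099, adjusted p = 0.309), and 0.12 for *Neu1*, neuraminidase (SE 0.078, adjusted p = 0.338), with every *Themis*-KO liver above the WT range for *Neu1*. *Naglu*, *Gaa*, the acid alpha-glucosidase that degrades glycogen, and *Glb1*, beta-galactosidase, were at −0.077, −0.085 and −0.13, with SE of 0.14, 0.077 and 0.10 and adjusted p of 0.745, 0.481 and 0.411. With total-count scaling the 3 values turned to 0.061, 0.055 and 0.0094.

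The 2 cholesterol exporters had differences of opposite sign. *Npc2*, the soluble carrier that takes cholesterol from the lumen to the membrane, rose, with a CPM of 61.8, 63.9 and 62.2 in WT livers and 78.0, 78.4 and 77.0 in *Themis*-KO livers (log2 fold change 0.31, SE 0.071, adjusted p = 0.0398). *Npc1*, its membrane-bound acceptor, had 178, 172 and 187 in WT livers and 152, 150 and 156 in *Themis*-KO livers, lower without overlap but not past the test (−0.23, SE 0.078, adjusted p = 0.0980). The spread within a label was small for both, and in no alternative did either value change sign. The difference between the 2 genes was not itself tested.

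The LAMP proteins, the most abundant of the lysosomal membrane, also had differences of opposite sign. *Lamp1* had a CPM of 785, 879 and 796 in WT livers and 898, 923 and 929 in *Themis*-KO livers (log2 fold change 0.16, SE 0.089, adjusted p = 0.254). *Lamp2*, which also serves in chaperone-mediated autophagy, had 496, 496 and 441 in WT livers and 406, 407 and 422 in *Themis*-KO livers (−0.21, SE 0.088, adjusted p = 0.147). Neither pair of groups overlapped and neither gene passed. *Cln3*, a membrane protein whose loss causes juvenile Batten disease, had 9.63, 11.1 and 9.71 in WT livers and 13.9, 14.2 and 11.4 in *Themis*-KO livers (0.37, SE 0.13, adjusted p = 0.103). *Mcoln1*, the calcium channel TRPML1, had 46.9, 53.7 and 43.8 in WT livers and 43.6, 42.9 and 47.5 in *Themis*-KO livers (−0.11, SE 0.10, adjusted p = 0.487), and turned to 0.031 with total-count scaling.

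**Figure D2:**
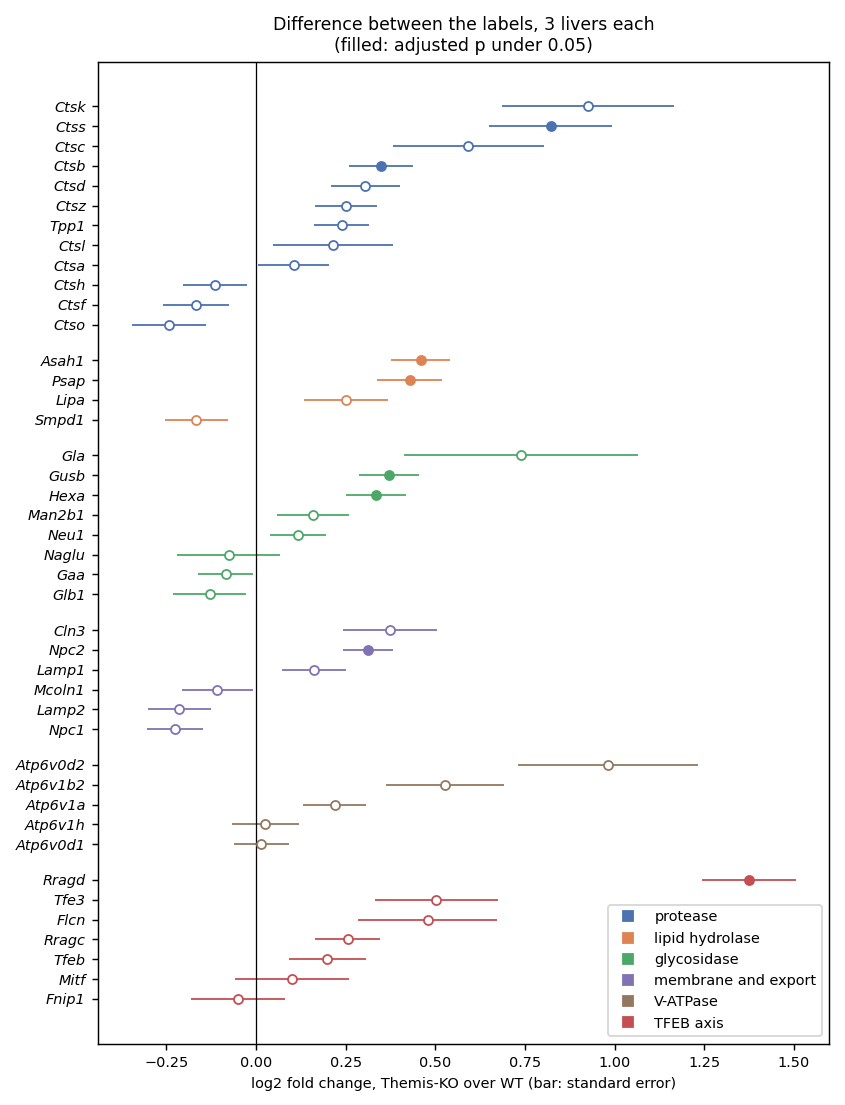
Log2 fold change of *Themis*-KO over WT with its SE for the 42 genes, grouped by role; filled points have an adjusted p under 0.05. The 8 filled points are all to the right of 0, and the values run from −0.24 for *Ctso* to 1.38 for *Rragd*.

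Levels across the list spanned a wide range. Per kilobase of merged exons, *Lamp1* was the highest, at 293 to 347 CPM over the 6 livers, followed by *Ctsz* (178 to 235), *Psap* (160 to 233) and *Ctsd* (152 to 218). The ranges of the last 3 overlapped, so their order was not set, while the lowest liver for *Lamp1* was above the highest for each of them. *Mitf* (0.726 to 0.898), *Ctsk* (0.698 to 1.76), *Rragd* (0.696 to 2.04) and *Atp6v0d2* (0.760 to 2.52) were the lowest and overlapped as well. The 3 genes with a log2 fold change above 0.9 were all among these 4. Merged exons include transcripts that liver may not use, so these levels are approximate.

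**Figure D3:**
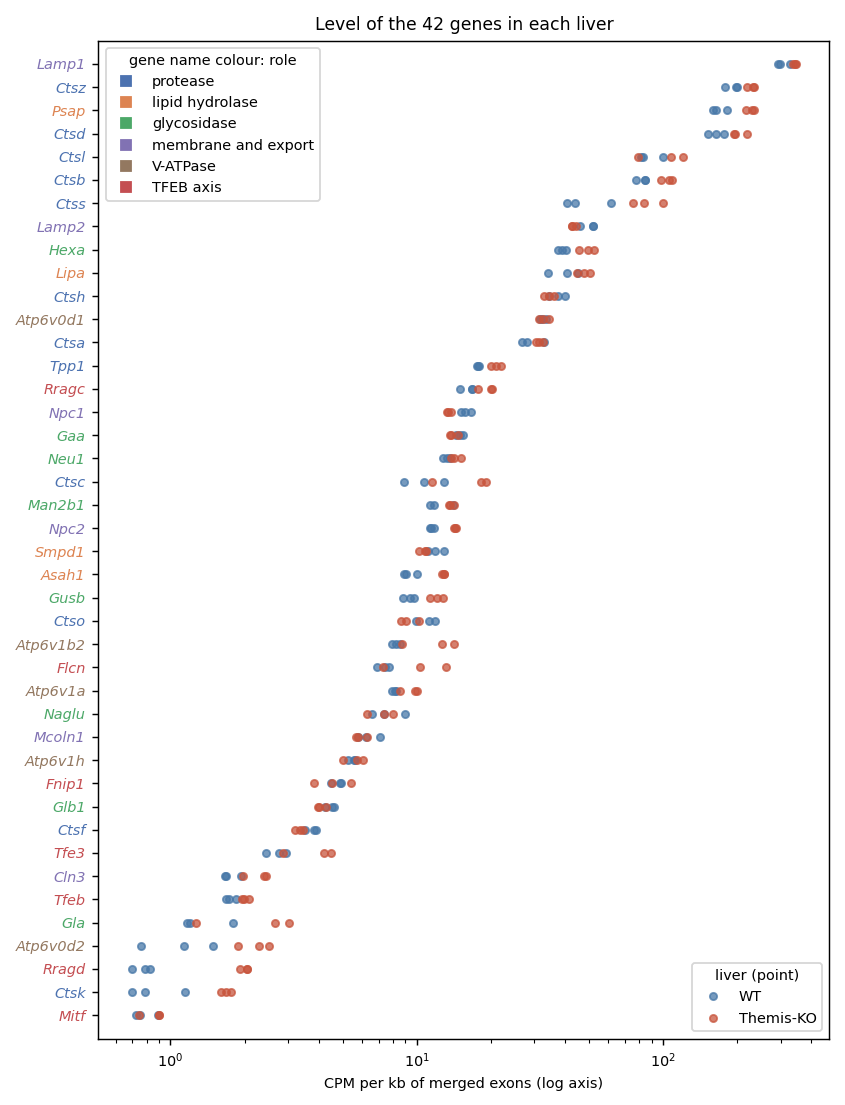
CPM per kilobase of merged exons (log axis) of the 42 genes in each liver, ordered by the mean over 6 livers, with gene names coloured by role. Points of both labels lie close together at the top, where *Lamp1* runs from 293 to 347, and apart for *Rragd*, *Ctsk* and *Atp6v0d2* near the bottom.

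The *Themis*-KO livers were not alike. Relative to the WT mean, the median of the 42 genes was 0.26 and 0.28 on the log2 scale in *Themis*-KO replicates 1 and 2 and 0.10 in replicate 3. Replicate 3 was the lowest *Themis*-KO liver in 24 of the 42 genes (57.1%, against 41.0% of all genes tested) and in 6 of the 8 that passed the test, as in 75.7% of all genes called higher. In 7 genes (*Ctsc*, *Ctsl*, *Gla*, *Atp6v1h*, *Tfe3*, *Mitf* and *Flcn*) replicates 1 and 2 lay above every WT liver and replicate 3 did not (16.7%, against 13.5% of all genes tested). *Asah1* and *Gusb* were the genes of the 8 in which another *Themis*-KO liver was the lowest.

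**Figure D4:**
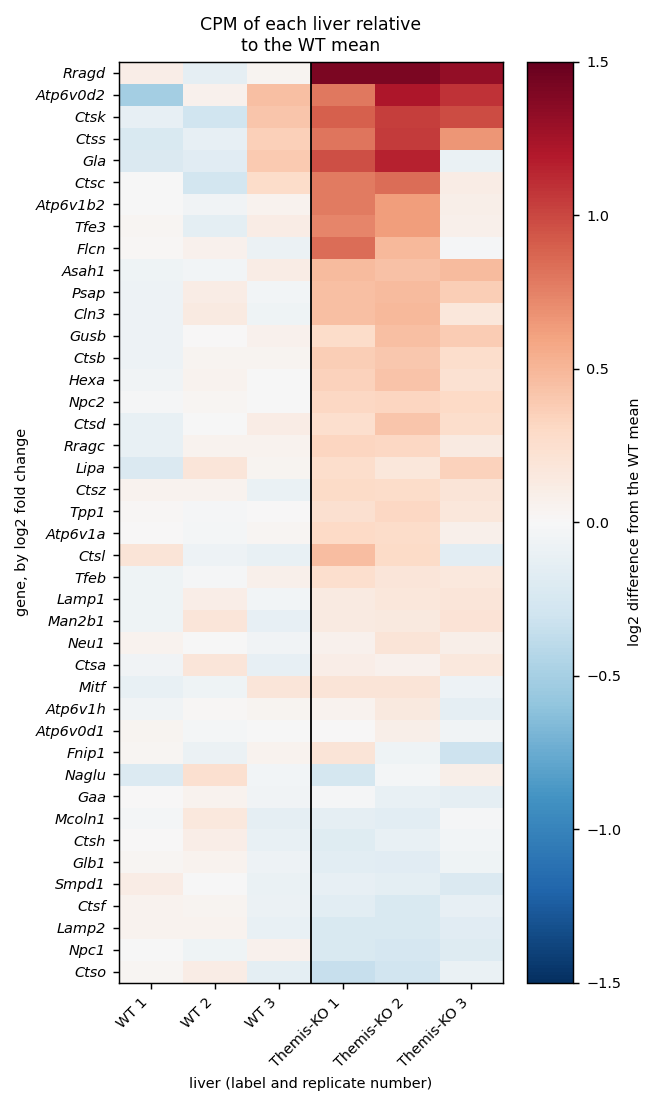
Log2 difference of each liver's CPM from the WT mean (colour) for the 42 genes in rows, ordered by log2 fold change, and the 6 livers in columns. The *Themis*-KO columns are red in the upper rows, less so in replicate 3, whose median is 0.10 against 0.26 and 0.28 in replicates 1 and 2.

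Many of these genes are expressed more strongly in macrophages than in hepatocytes, and in whole tissue more cells of a type cannot be told apart from more RNA per cell. Of 10 macrophage markers, 3 (*Mpeg1*, *Fcgr1* and *Tyrobp*) were higher, and all 10 were positive. Their summed CPM ran from 429 to 646 in WT livers, WT replicate 3 being the highest, and from 703 to 867 in *Themis*-KO livers. Of 6 markers of lipid-associated macrophages, 5 were higher, and their sum was 215 to 284 against 529 to 833. Of 6 Kupffer cell markers 0 passed, 3 were positive and 3 negative, and the median log2 fold change was −0.25. Their sums were 231 to 395 against 323 to 409, of which *Cd5l* had 104 to 180 in WT and 200 to 249 in *Themis*-KO livers. Of 10 hepatic stellate cell (HSC) markers, 6 were higher, with sums of 432 to 484 against 653 to 705. Cholangiocyte markers summed to 169 to 209 against 400 to 632, and 1 of 8 tested was higher, *Spp1*, which is also on the list of lipid-associated macrophages. *Spp1* carried most of this sum: without it the cholangiocyte markers summed to 28.4 to 32.5 in WT and 33.0 to 61.3 in *Themis*-KO livers, and those of lipid-associated macrophages to 73.5 to 121 and 162 to 263. Of 8 endothelial markers 1 was higher, of 5 T cell markers tested 1 was lower, and of 6 B cell and 3 neutrophil markers tested 0 passed. Of 11 hepatocyte markers 2 were lower, and 10 were negative. Their sum was 72980 to 82350 against 60140 to 61950, of which *Alb*, which did not pass, had 39780 to 43020 in WT and 33600 to 37330 in *Themis*-KO livers. The count table holds no gene at 0 in every liver. *Tf* of the hepatocyte list and *Ly6g* of the neutrophil list were not in it. The part of these cells in the lysosomal values was not tested.

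The rest of the pathway was described by 135 other genes of the table, of which 129 were tested. Here 7 were higher (5.43%, near the 4.97% of all genes) and 3 lower, and the median log2 fold change was 0.052. *Cd63*, a tetraspanin of late endosomes and lysosomes, differed most, with a CPM of 13.7, 18.3 and 22.7 in WT livers and 75.9, 72.4 and 65.1 in *Themis*-KO livers (log2 fold change 1.96, SE 0.17, adjusted p = 0.00772). Among the other membrane and sorting proteins, *Laptm5* (0.88, adjusted p = 0.0229) and *Cd68* (1.06, adjusted p = 0.0369), both known from macrophages, also rose. *Igf2r*, 1 of the mannose 6-phosphate receptors, rose as well (0.43, adjusted p = 0.0418), and *Tpcn1*, a cation channel, fell (−0.51, adjusted p = 0.0395).

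Of 39 other hydrolases, *Ggh*, gamma-glutamyl hydrolase (log2 fold change 0.57, adjusted p = 0.0241), and *Lgmn*, legumain (0.78, adjusted p = 0.0426), rose, and *Hyal1*, hyaluronidase 1, fell (−0.53, adjusted p = 0.0345). Of 15 other V-ATPase subunits tested, *Atp6ap2* rose (0.51, adjusted p = 0.0336) and 12 were positive. Of 21 other Rag, Ragulator and mTORC1 genes 0 passed, with a smallest adjusted p of 0.0775 for *Tfec*, the fourth member of the TFE family (0.68). Of 23 autophagy genes, *Atg5*, which conjugates to ATG12 in the making of autophagosomes, fell (−0.43, adjusted p = 0.0425). *Sqstm1*, the autophagy receptor p62, had 414, 408 and 465 CPM in WT livers and 1057, 878 and 445 in *Themis*-KO livers, and replicate 3 lay within the WT range (0.89, SE 0.28, adjusted p = 0.0791).

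**Figure D5:**
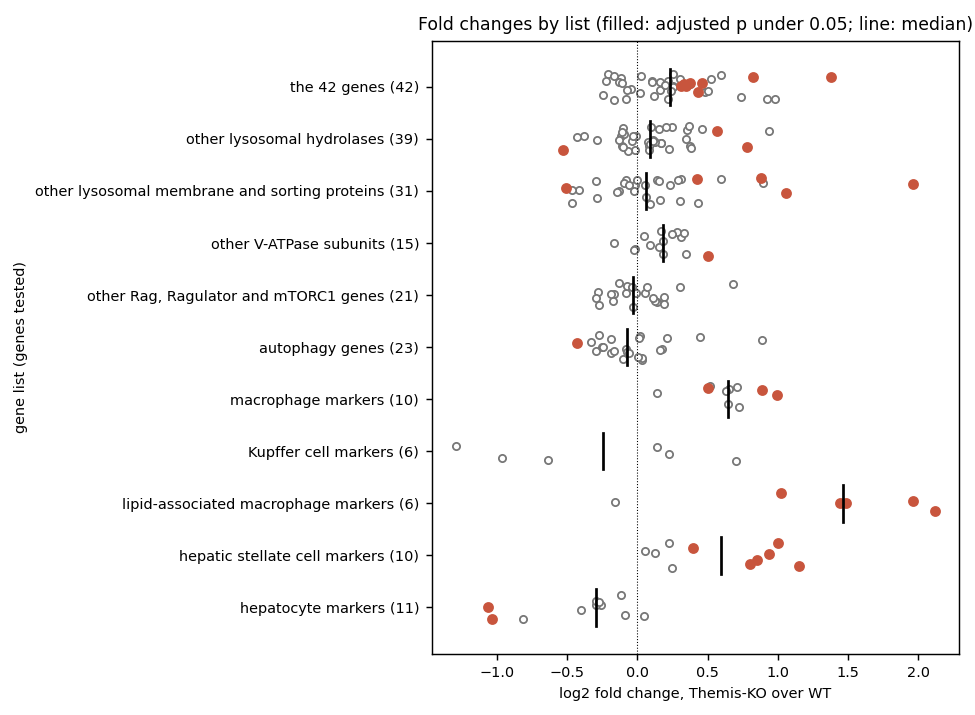
Log2 fold change of *Themis*-KO over WT of each tested gene (points, filled where the adjusted p is under 0.05) and the median (line) for the 42 genes, 5 lists of other lysosomal, mTORC1 and autophagy genes, and 5 lists of cell type markers. The median is 0.23 for the 42 genes and between −0.077 and 0.18 for the 5 pathway lists.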

How the data were processed

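Per the labels and the study's Methods, the authors made poly(A) libraries from 3 WT and 3 *Themis*-KO livers, mapped paired-end reads to GRCm38 with STAR 2.7.8a and deposited estimated counts per gene from RSEM 1.3.3, stored as whole numbers without normalization. The submitters' processing notes also name cutadapt 2.3. The annotation release and strand setting are not given in the sources used here. RSEM shares out reads that match more than 1 gene.

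The analysis used edgeR 4.0.16 under R 4.3.3. Its function filterByExpr kept 14496 of 25403 genes, libraries were scaled by TMM, and glmQLFit and glmQLFTest compared the labels over all 6 livers without covariates. Each SE is the size of the log2 fold change divided by the square root of F. The threshold was an adjusted p of 0.05. DESeq2 1.42.0 was an alternative, as the authors used DESeq2. The fit was tested on simulated counts. Coordinates and exon lengths are from GENCODE vM21 (GRCm38), promoters from RefSeq (GRCm38.p6). For 8 of the 42 genes (*Cln3*, *Ctsa*, *Ctsb*, *Ctsd*, *Ctsz*, *Glb1*, *Lamp1* and *Npc1*) an exon overlaps that of another listed gene with 100 counts or more in some liver, and reads there may be divided between them.

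The 42 genes, the other lists, the rule for named genes (every gene past the threshold and the regulators, pump and membrane genes liver by liver, the others by their values, up to 4 of each other list) and the alternatives were chosen with earlier results of these data known. *Igf2r* was named beyond that rule, after its values were seen. The study speaks of the sequenced livers as pairs and of littermates for chow-fed mice of the line. Which of these mice shared a litter or batch is not given in the sources used here. Figures were drawn with matplotlib 3.10.9.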

Additional observations from a re-analysis of the deposited data

How the results depend on the processing

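Precision is limited by 3 livers per label and by fold changes that are mostly small. The 14 alternatives gave 588 values for the 42 genes, of which 483 kept direction and side of the threshold, 54 lost and 34 gained the call, and 17 changed sign, in 9 genes. With total-count scaling, which moved the median of all genes from 0.0095 to 0.15, *Ctsh* was at 0.025, *Gaa* at 0.055, *Glb1* at 0.0094, *Naglu* at 0.061, *Mcoln1* at 0.031 and *Fnip1* at 0.090. With the mitochondrial split as a covariate *Ctsh* was at 0.0010, *Mcoln1* at 0.029, *Atp6v1h* at −0.011 and *Mitf* at −0.073. With each liver left out, *Atp6v1h* ran from −0.045 to 0.085, *Naglu* from −0.18 to 0.049, *Atp6v0d1* from −0.030 to 0.032 and *Fnip1* from −0.19 to 0.051.

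Of the 42 genes, 16 were higher with total-count scaling, 13 with DESeq2, 1 with the replicate block and 0 with the mitochondrial split (without adjustment, 8 were higher and 1 lower at p under 0.05). The median of the 42 genes was 0.37 with total-count scaling. With each liver left out the higher genes ran from 1 to 19 and the lower from 0 to 1. Of the 129 other pathway genes tested, 22 were higher and 0 lower with total-count scaling, 11 and 8 with DESeq2, 1 and 0 with the block, and 0 and 0 with the mitochondrial split. The lower ones numbered 6 with RLE size factors, 5 without a filter and 5 with at least 10 counts in every liver. With each liver left out, 1 to 19 were higher and 0 to 15 lower. Of all genes, 1449 were higher and 387 lower with total-count scaling, against 721 and 600, 1212 and 967 without a filter, 1279 and 1090 with DESeq2, 17 and 45 with the block, and 0 and 3 with the mitochondrial split. With each liver left out, 8 to 2228 were higher and 12 to 2039 lower. The cause of these differences was not tested.

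The replicate number was used as a block because the labels number the livers 1 to 3 under each label, and the study speaks of pairs of livers, but neither says which livers form a pair or that the number marks one. Livers of the same number had correlations of 0.00028, −0.24 and −0.16 in their deviations from the label means. With the block, *Rragd* kept its call and the other 7 genes lost it.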
